A study of Mus musculus with 6 samples.

Results

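A lncRNA array for mouse made by Arraystar (version 2.0) carries a consecutive block of 3741 probes, numbered by their maker from ASMM9PARTA014437 to ASMM9PARTA018179 with ASMM9PARTA015140 and ASMM9PARTA017613 left out, and these probes are the subject here. They make up 7.22% of the 51842 probes that are named by such a design number, and 6.27% of all 59709 non-control probes. A probe was found for every number of the range, each with 1 spot per array, and none of the 3741 carries a transcript name. That the block holds noncoding transcripts of the Ensembl catalogue, in the order of their Ensembl numbers, is inferred. The study lists its most changed transcripts with the mean intensities after ischemic preconditioning (IPC) in the area at risk (AAR) and in remote myocardium (RM), and the 11 Ensembl transcripts of that list were located by looking for the probe with the nearest pair of means. In all 11 cases a single probe came within 0.104% of both means, and no other came within 3.07%. The 5 transcripts found at the ends of the block or inside it stood in rising order. ENSMUST00000127786 (Xist) fell on ASMM9PARTA014436, the number just before the block, ENSMUST00000133015 (Gm12542) on ASMM9PARTA015140, ENSMUST00000145087 (Gm6706) on ASMM9PARTA016481, ENSMUST00000153883 (Xist) on ASMM9PARTA017613 and ENSMUST00000160241 (Gm15810) on ASMM9PARTA018180, the number just after it. Of these, only Gm6706 is a member. Over the whole list, 1 pair of neighbouring transcripts was out of order, and it lay outside the block.

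Ensembl lists many mouse transcripts with no long open reading frame, among them intergenic RNAs, RNAs antisense to or overlapping protein-coding genes, RNAs transcribed from pseudogenes and unprocessed or intron-retaining forms of known genes. Many such RNAs are made at low levels, stay in the nucleus and are turned over quickly, and for most of them no function is known. In the heart, some long noncoding RNAs take part in the response to lack of oxygen by acting on transcription, splicing or the processing of other RNAs.

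The study asked which noncoding transcripts change in the heart soon after IPC, in which the left coronary artery is closed and reopened repeatedly for minutes at a time. All 4 mice were of the strain written as C56BL7 and were recorded as females of 12 months. Mice 004 and 008 received 4 cycles of 4 min of ischemia by the series records (the study's methods state longer cycles, and name mice of both sexes), followed by 30 min of reperfusion, whereas mice 012 and 013 had a sham operation. From each IPC mouse 1 biopsy came from the AAR, the muscle fed by the closed artery, and 1 from the RM, which by the methods was right ventricle, and from each sham mouse 1 biopsy came from the AAR. This gave 6 arrays in 3 groups of 2: IPC AAR, IPC RM and sham AAR.

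Some facts of these arrays touch every result. The probe located as Xist (ASMM9PARTA014436, not a member), which in females is made from the inactive X chromosome, read 13.31 and 13.28 in the IPC AAR and 12.95 and 12.80 in the sham AAR, but 7.40 and 7.71 in the IPC RM (log2 normalized intensity). The arrays labelled IPC RM therefore went against the recorded sex and against the AAR of the same mice. The comparison of IPC AAR with sham AAR is the one that leaves them out. Slide 1 held the IPC arrays and slide 2 those of the sham mice, so slide and treatment cannot be told apart, and the IPC RM differs from the sham AAR in region, treatment and slide at once. The share of spots well above background ranged from 61.2% to 80.6% over the arrays, and no spot of the array was saturated. The tissue label was not checked against heart marker genes here. In biopsies, fewer cells of a type and less RNA per cell cannot be told apart.

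A member counted as detected when the scanner software marked its spot as well above background. The block was detected less often than the array as a whole on all 6 arrays. In the IPC AAR, 62.4% (mouse 004) and 63.8% (008) of the 3741 members were detected, beside 68% and 70.6% of all probes. In the IPC RM the shares were 71.1% and 74.1%, beside 78.4% and 80.5%. In the sham AAR they were 52.3% (012) and 64.3% (013), beside 61% and 72.2%. The highest shares of members were those of the IPC RM and the lowest was that of sham mouse 012, and the same order held for all probes.

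**Figure D1:**
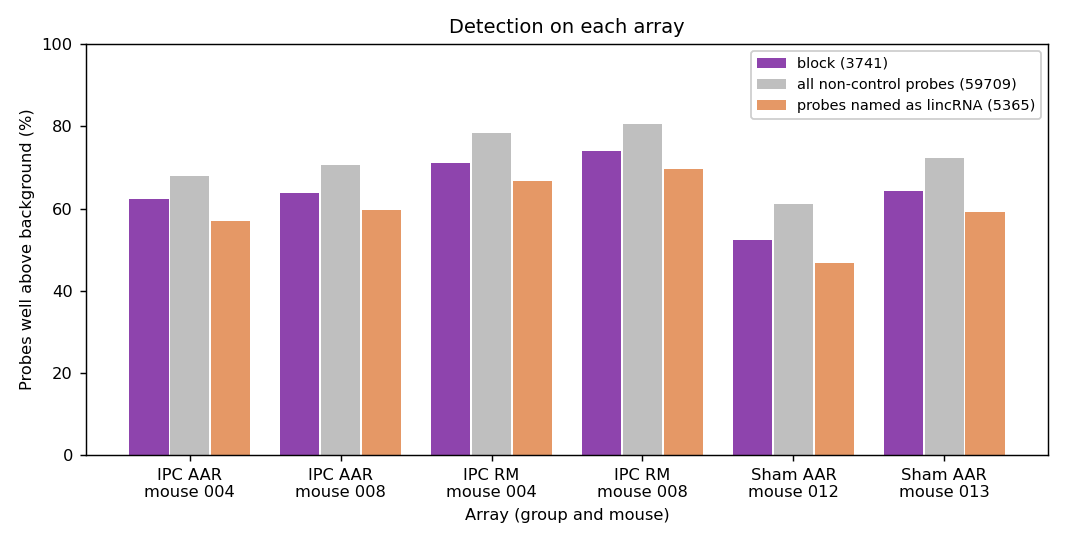
Percentage of probes well above background on each of the 6 arrays, for the block, for all non-control probes and for the probes named as lincRNA. The bars of the block (52.3% to 74.1%) lie below those of all probes and above those of the lincRNA probes on every array.

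On both arrays of a group, 2188 members (58.5%) were detected in the IPC AAR, 2600 (69.5%) in the IPC RM, with 1905 (50.9%) in the sham AAR, against 65.5%, 77.1% and 59.8% of all probes. Over all arrays, 1862 members (49.8%) were detected on all 6, and 750 (20%) on none, whereas 57.9% and 15.2% of all probes were. Among the 5365 probes that the files name as long intergenic noncoding RNAs (lincRNA), 44.1% were detected on all 6 arrays and 24% on none, so the block lay between these named probes and the whole array. These differences between sets of probes were not tested.

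Some members were seen in some groups and not in others. The IPC RM alone detected 130 members on both of its arrays while neither array of the IPC AAR or the sham AAR did, which is 3.48% of the block and compares with 2.98% of all probes. Detection on both IPC AAR arrays and on no other array was found for 2 members (0.0535%, beside 0.0938% of all probes), and on both sham arrays and no other for 1 (0.0267%, beside 0.0285%). A set of 13 members was detected on both arrays of the IPC RM and of the sham AAR but on neither IPC AAR array (0.348% of the block, 0.857% of all probes). The converse, detection on both IPC AAR and both sham AAR arrays but on neither IPC RM array, was found for 1 member (0.0267%, beside 0.01%). More probes of the whole array were detected in the IPC RM than elsewhere, and its part in these counts was not tested.

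The members were also dimmer than the array as a whole. The median processed signal of the block, before any normalization between arrays, was 29.3 and 27.3 in the IPC AAR, 37.3 and 42.2 in the RM and 23.5 and 26.2 in the sham AAR, whereas the medians of all probes ran from 39.5 to 79.8. After quantile normalization the median of the block lay below that of all probes by 0.64 on the log2 scale in the IPC AAR, and its difference from all probes was -0.93 in the IPC RM and -0.81 in the sham AAR. The mean log2 intensity of a member over the 6 arrays ranged from 1.37 to 18.01, with a median of 4.85. The brightness of a spot also depends on its probe, so no order between transcripts is read from these levels.

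After quantile normalization, which gives equal ranks the same value on all arrays, the 5 brightest members differed little between groups. Part of this likeness is set by the method. Before normalization, ASMM9PARTA017079 had signals of 253000 and 252000 in the IPC AAR and 199000 and 178000 in the RM. Its sham signals were 142000 and 140000. In all 5, both IPC AAR signals were above both sham signals. ASMM9PARTA015075 read between 17.83 and 18.17 on the 6 arrays (log2). ASMM9PARTA017395 read 18.06 and 18.05 in the IPC AAR, 17.98 and 17.99 in the RM and 17.91 and 17.97 in the sham AAR (mice 004 and 008, and for the sham 012 and 013, in this order here and in what follows). The ranges of the other 3 over the 6 arrays were 17.33 to 17.78 (ASMM9PARTA017079), 17.32 to 17.58 (ASMM9PARTA014493) and 17.24 to 17.59 (ASMM9PARTA016673). None of the 5 passed the test in any comparison, and their log2 differences between groups lay between -0.16 and 0.39.

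The spread between the mice of a group sets what can be told apart. Over the members detected on all 6 arrays, the median absolute log2 difference between the arrays of a group was 0.14 in the IPC AAR (1860 members), 0.14 in the IPC RM (1861) and 0.35 in the sham AAR (1860). The replicates differed by more than 2-fold for 61 members (3.28%) in the IPC AAR, 9 (0.484%) in the IPC RM and 123 (6.61%) in the sham AAR. Comparisons with the sham arrays are therefore less precise.

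Between the IPC AAR and the IPC RM, 286 of the 2606 members tested were called (11%), that is, they had a Benjamini-Hochberg adjusted p below 0.05 in limma and a fold change over 2. Over the whole array 20.6% of the 46232 probes tested were called, so the share in the block was lower. The called members comprised 168 that were higher in the IPC AAR and 118 that were lower. As a share of those tested, the higher members (6.45%) were close to the whole array (7.29%) and the lower ones were fewer (4.53% against 13.3%), so that 58.7% of the called members were higher, beside 35.5% of all called probes (67.7% and 50.5% with each array scaled to its 75th percentile). The lincRNA probes gave similar shares, with 11.3% of 3507 called, 215 higher and 181 lower. The median log2 difference, IPC AAR minus IPC RM, was 0.33 over the members tested and 0.20 over all probes tested. The remaining 1135 members were detected on both arrays of neither group, or had an outlier spot, and were not tested. A single array decided much of the count, which fell without either IPC RM array and rose without either IPC AAR array, as it did over all probes. The members' median log2 difference was 0.31 without IPC RM 004, 0.36 without IPC RM 008 and 0.32 without IPC AAR 008. Over all probes it was 0.18, 0.22 and 0.17. After another background correction (normexp) 93 members were called (3.57%, beside 10.9% of all probes tested). That correction adds an offset of 50 to every signal, which lowers the folds of dim probes. By the methods' t-test 176 were called (6.75%, beside 15.1%).

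**Figure D2:**
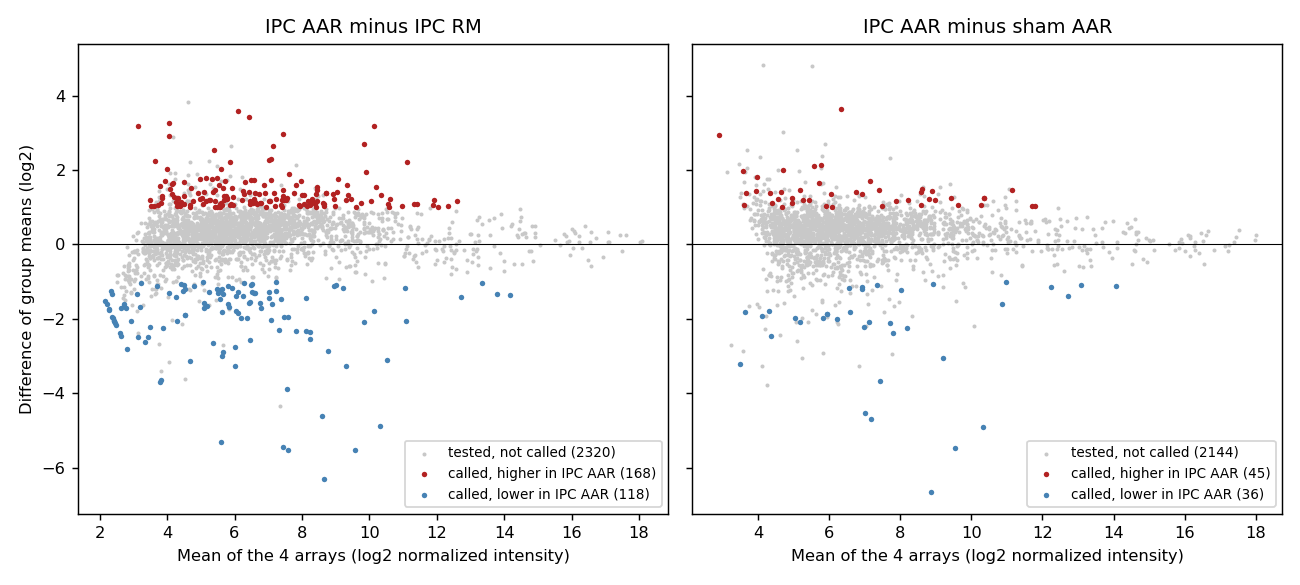
Difference of group means against mean intensity (both log2) for the members tested, for IPC AAR minus IPC RM (left) and IPC AAR minus sham AAR (right), each point 1 member. Members called higher in the IPC AAR (168 left, 45 right) are red and those called lower (118 left, 36 right) are blue, and the 5 lowest points on the left lie below -5.

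Among called members detected on all 4 arrays, where the fold is measured on both sides, 12 of 160 higher members (7.5%) and 23 of 73 lower ones (31.5%) differed by more than 4-fold. Over the whole array these shares were 11.7% and 44.4%, so large folds lay mostly on the lower side there too. A fold over 8 was found for 3 higher and 10 lower members (1.88% and 13.7%, beside 2.71% and 19.1% of such called probes), over 16 for 0 and 6 (8.22% of the lower, beside 7.66%) and over 32 for 0 and 4 (5.48% of the lower, beside 2.99%). The left-out probes ASMM9PARTA017613 and ASMM9PARTA015140 are not in these counts. Both were higher in the IPC AAR, by 3.90 ± 0.10 and 3.38 ± 0.16 (log2, SE), and would have ranked among the largest increases. The median group mean of the 118 lower members was 4.92 in the IPC AAR, 6.71 in the IPC RM and 6.30 in the sham AAR (log2 intensity). For the 168 higher members the medians were 7.31, 5.90 and 6.58.

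Among members detected on all 4 arrays, the largest increases in the IPC AAR over the IPC RM belonged to ASMM9PARTA015573, ASMM9PARTA017495, ASMM9PARTA015797, ASMM9PARTA018144 and ASMM9PARTA015259, all with no known name here. ASMM9PARTA015573 read 7.99 and 7.84 in the IPC AAR, 4.05 and 4.59 in the RM and 4.86 and 1.37 in the sham AAR, where mouse 013 was not well above background. Its log2 difference between the IPC regions was 3.59 ± 0.22 (SE, adjusted p = 0.00286). ASMM9PARTA017495 read 8.03 and 8.27 in the IPC AAR, 4.70 and 4.74 in the RM and 4.91 and 4.11 in the sham AAR. Its spot was not well above background in sham mouse 012, and the IPC AAR stood alone above the other 2 groups. Its log2 difference from the RM was 3.43 ± 0.12 (adjusted p = 0.0011). It was also called against the sham AAR, at 3.64 ± 0.33, but entered that test only through the IPC AAR.

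ASMM9PARTA015797 read 11.73 and 11.73 in the IPC AAR, 8.61 and 8.50 in the RM and 10.51 and 11.10 in the sham AAR, a log2 difference between the IPC regions of 3.17 ± 0.08 (adjusted p = 0.00084). Its sham arrays lay between the IPC groups and nearer to the IPC AAR. ASMM9PARTA018144 read 8.85 and 8.97, 5.93 and 5.97, and 8.16 and 8.09, and ASMM9PARTA015259 read 11.19 and 11.21, 8.51 and 8.51, and 9.82 and 10.25, in the same order of groups. Their log2 differences were 2.96 ± 0.09 and 2.69 ± 0.07, and in both the low group was the IPC RM, with the sham AAR in between. The range of the difference over the alternatives was 1.86 to 3.86 for ASMM9PARTA015573, which lost its call with all 6 arrays in a single fit, and the other 4 kept theirs under all 14 alternatives.

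Among members detected on all 4 arrays, the largest decreases were those of ASMM9PARTA016481, ASMM9PARTA016798, ASMM9PARTA017942, ASMM9PARTA015629 and ASMM9PARTA015048. ASMM9PARTA016481, located as Gm6706, a predicted gene, had deposited signals of 34.3 and 42.3 in the IPC AAR, 4340 and 4940 in the RM and 3680 and 3910 in the sham AAR. On the normalized log2 scale these were 5.32 and 5.72, 11.69 and 11.94, and 12.16 and 12.21. Both IPC AAR arrays were far below the other 4, and the difference between the IPC regions was -6.37 in mouse 004 and -6.22 in mouse 008, a mean of -6.30 ± 0.19 (SE). Since this probe was located through a list that the study ranked by this same contrast, its difference is a description and is not independent evidence.

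ASMM9PARTA016798 read 6.79 and 6.81 in the IPC AAR, 12.40 and 12.26 in the RM and 11.99 and 12.56 in the sham AAR, a log2 difference between the IPC regions of -5.53 ± 0.09 (adjusted p = 0.000723). ASMM9PARTA017942 read 4.88 and 4.78, 10.40 and 10.30, with 9.07 in sham mouse 012 and a higher value in 013, a difference of -5.52 ± 0.09. ASMM9PARTA015629 read 4.75 and 4.71, 10.25 and 10.10, and 8.39 and 10.14, a difference of -5.45 ± 0.09. In these 3 members, as in ASMM9PARTA016481, both IPC AAR arrays lay below all others. Sham mouse 012 lay below the RM in ASMM9PARTA017942 and ASMM9PARTA015629, while sham mouse 013 was close to it in all 3. ASMM9PARTA015048 read 7.83 and 7.92, 12.85 and 12.69, and 12.76 and 12.80, and fell by 4.89 ± 0.10 on the log2 scale, with the sham arrays level with the IPC RM. These 5 calls held under all 14 alternatives.

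**Figure D3:**
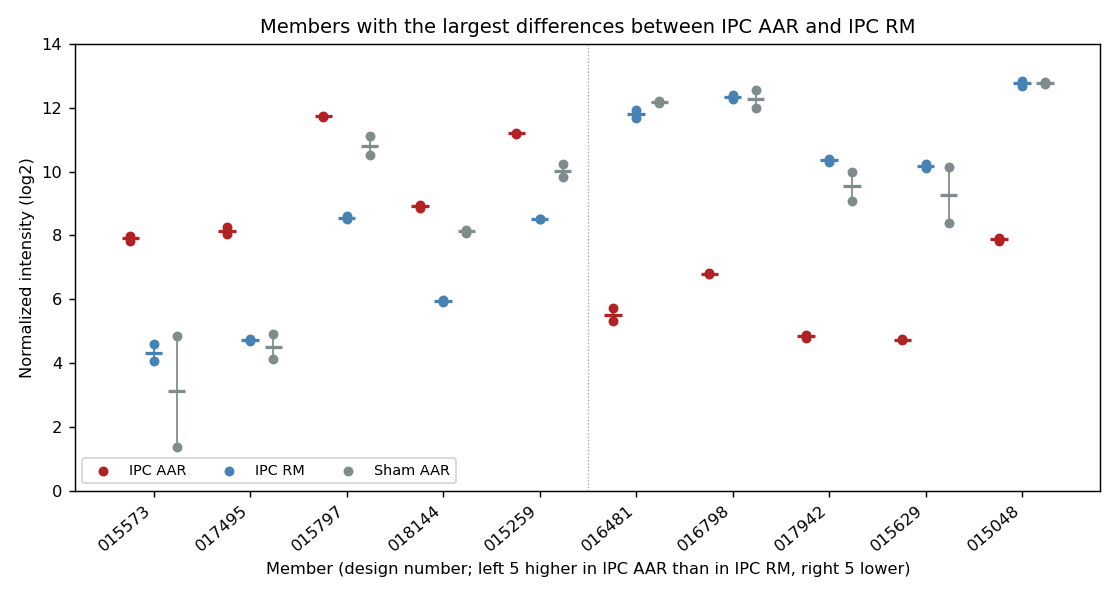
Log2 normalized intensity of the 10 members with the largest differences between IPC AAR and IPC RM among those detected on all 4 arrays, with 1 point per array, a short bar at the group mean and a vertical line joining the arrays of a group. In the right 5 members the IPC AAR (4.71 to 7.92) lies apart below the IPC RM and the sham AAR (8.39 to 12.85), and in the left 5 it lies above both.

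Some called members were dim on both arrays of a group, and for these the fold is given as a bound. The limit for each dim array is its lowest value well above background, or the member's own value if higher. Spots not well above background can read above that lowest value, as ASMM9PARTA017495 did in sham mouse 012. Each bound therefore holds only for this limit. With normexp, whose offset lowers the folds of dim probes, the dim members named below all had folds under their bounds. Dim members entered the test only through the group where they were bright, so their adjusted p is a description. Of the 118 lower members, 37 were not well above background on either IPC AAR array, and of the 168 higher members 4 were not on either IPC RM array. These shares, 31.4% and 2.38%, were near those of all called probes, 28.9% and 2.58%. ASMM9PARTA014840 read 3.75 and 2.12 in the IPC AAR against 8.36 and 8.12 in the RM, and was at least 18.8-fold lower in the former (adjusted p = 0.00915). Its sham arrays were split, at 3.05 in mouse 012, not well above background, and 7.52 in mouse 013. Neither AAR group was well above background throughout, so its IPC AAR was not tested against the sham AAR. Its IPC RM was tested against the sham AAR and not called, at 2.96 ± 1.62 (log2, adjusted p = 0.425). ASMM9PARTA016183 was at least 4.73-fold lower in the IPC AAR, with 2.81 and 3.44 there, 6.34 and 6.15 in the RM and 5.73 and 5.43 in the sham AAR.

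A pair of members had similar readings where both were well above background, on both IPC RM arrays and in sham mouse 013. On the other arrays both were dim. In the IPC AAR of mouse 004 both stood at the lowest processed signal of that array, 3.03. ASMM9PARTA016946 read 1.41 and 2.48 in the IPC AAR, 5.65 and 5.64 in the RM and 4.22 and 5.99 in the sham AAR. ASMM9PARTA017744 read 1.41 and 2.57, 5.75 and 5.50, and 4.24 and 5.91. They were at least 3.12-fold and at least 3.08-fold lower in the IPC AAR, and whether their probes share sequence was not analysed here. ASMM9PARTA015108 was at least 2.78-fold lower. These 5 dim members lost their calls when either IPC RM array was left out. With normexp all but ASMM9PARTA014840 lost theirs, at log2 differences of -0.95 (ASMM9PARTA016183), -0.72 (ASMM9PARTA016946), -0.77 (ASMM9PARTA017744) and -0.56 (ASMM9PARTA015108). In those that lost theirs, the adjusted p by limma was 0.000808 to 0.00261, and only the fold fell short. The methods' t-test did not call ASMM9PARTA014840, ASMM9PARTA016946 or ASMM9PARTA017744, nor did the single fit of 6 arrays call ASMM9PARTA014840.

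In the other direction, ASMM9PARTA017205 read 5.87 and 5.51 in the IPC AAR, 2.38 and 2.48 in the RM and 3.96 and 3.44 in the sham AAR, where neither array was well above background, and it was at least 7.14-fold higher than in the IPC RM (adjusted p = 0.00186). ASMM9PARTA016677 was at least 6.29-fold higher, with 5.30 and 5.72 against 2.62 and 2.57, and in the sham AAR it read 5.25 and 4.86, level with the IPC AAR. ASMM9PARTA015682 and ASMM9PARTA017060 were at least 3.76-fold and at least 3.64-fold higher. With normexp all 4 lost their calls, at log2 differences of 0.77, 0.66, 0.45 and 0.46 in the order named. Their adjusted p by limma was then 0.00167 to 0.0483, and only the fold fell short. ASMM9PARTA015682 also lost its call without IPC RM 004, without IPC RM 008, with no filter and by the methods' t-test.

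The lower share of calls in the block was seen at each brightness but differed in size. All probes tested between IPC AAR and IPC RM were split into 4 equal classes by mean intensity, and 30.3%, 31.8%, 24.5% and 13.4% of the members fell in the classes from dimmest to brightest. Members were called at 10%, 10.6%, 12.2% and 11.7%, where all probes were called at 20.2%, 20.4%, 24.8% and 16.9%. The gap was narrowest in the brightest class, and lay on the side of the lower calls: 4.01% of the brightest members were lower in the IPC AAR beside 9.5% of all probes, while 7.74% were higher beside 7.39%.

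**Figure D4:**
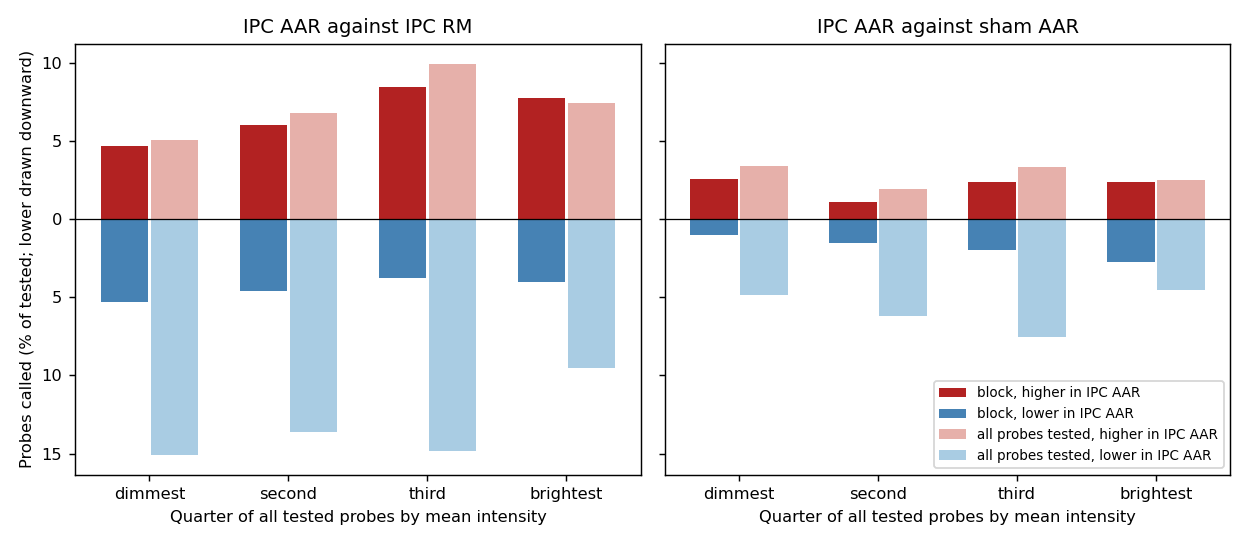
Percentage of tested probes called higher (upward) and lower (downward) in the IPC AAR, in 4 classes of mean intensity, for the block and for all probes tested, against the IPC RM (left) and the sham AAR (right). The downward bars of the block are shorter than those of all probes in every class, and the upward bars of the block and of all probes lie closer to each other than the downward ones.

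Since neighbouring numbers may hold transcripts of the same locus, the order along the block was examined for IPC AAR against IPC RM. The share of tested members that was called varied from 8.8% to 12.2% over 10 equal stretches of design numbers. Higher members outnumbered lower ones in 9 of the 10 stretches, the exception being the fifth, from ASMM9PARTA015935 to ASMM9PARTA016308, with 13 higher and 16 lower. The log2 differences of members with adjacent numbers had a Pearson correlation of -0.02 over 1843 pairs, and the mean levels of 0.03 over 3720 pairs. Pairs of members share arrays and are not independent, so these are descriptions.

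**Figure D5:**
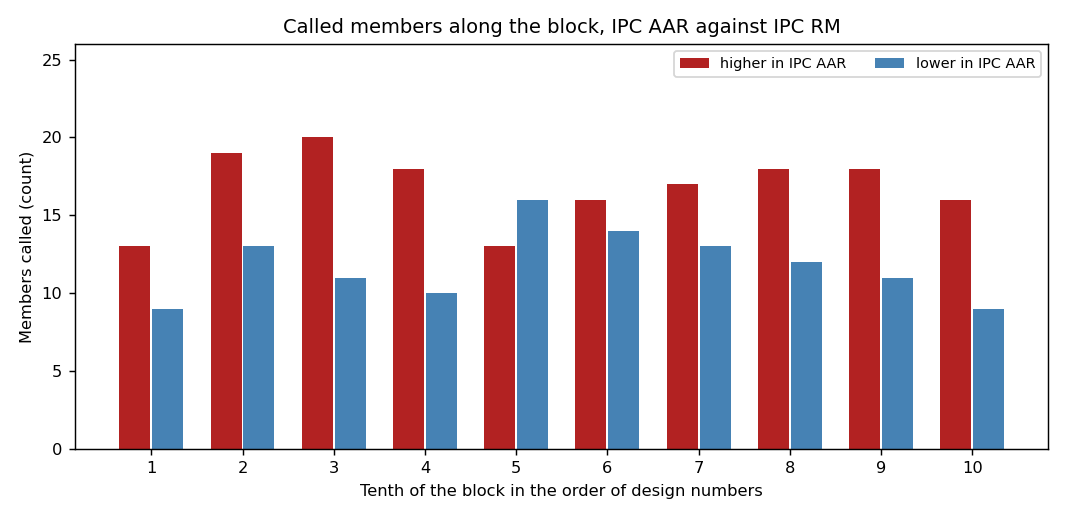
Number of members called higher and lower in the IPC AAR, against the IPC RM, in each of 10 equal stretches of design numbers. The higher counts run from 13 to 20 and the lower counts from 9 to 16 with no stretch empty.

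Calls in the same direction at adjacent numbers were few. The higher calls formed 155 single members, 5 pairs and 1 run of 3, and the lower calls 110 single members and 4 pairs. The run of 3 was ASMM9PARTA017006, ASMM9PARTA017007 and ASMM9PARTA017008. They read 7.36 and 7.51, 8.94 and 8.84, and 6.14 and 5.70 in the IPC AAR, and 6.56 and 6.31, 7.74 and 7.72, and 4.93 and 4.88 in the IPC RM. All 3 differences were small. That of ASMM9PARTA017007 was 1.16 ± 0.08 on the log2 scale, and the others were just past the fold of 2. In the pair ASMM9PARTA015244 and ASMM9PARTA015245 the log2 differences were 1.18 ± 0.21 and 1.53 ± 0.18. In the pair ASMM9PARTA015539 and ASMM9PARTA015540 they were 1.07 ± 0.22 and 2.65 ± 0.15.

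Between the IPC AAR and the sham AAR, the same region with and without IPC, fewer members differed. Of 2225 members tested, 81 were called (3.64%), beside 8.56% of the 40161 probes tested. They comprised 45 higher in the IPC AAR (2.02% of those tested, beside 2.78%) and 36 lower (1.62%, beside 5.78%), so that 55.6% of the called members were higher, beside 32.5% of all called probes. With each array scaled to its 75th percentile the share that was higher rose to 70.8%, with 114 of 161, and that of all called probes to 44.2%. The median log2 difference was 0.37 over the members and 0.23 over all probes. The comparison shares its IPC AAR arrays with the one above. The count depended on single arrays. It fell steeply without either IPC AAR array, fell without sham AAR 013 and rose without sham AAR 012, as it did over all probes. The members' median log2 difference was then 0.36, 0.36, 0.25 and 0.50 (without IPC AAR 004, IPC AAR 008, sham AAR 013 and sham AAR 012). Over all probes it was 0.23, 0.21, 0.14 and 0.30. The methods' t-test called 0 members (408 at an unadjusted p under 0.05), beside 2 of all probes. With all probes tested, limma called 0 members (839 unadjusted) and 0 of all probes.

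Among members detected on all 4 arrays, the 5 with the largest decreases against the sham AAR were those named above. The log2 differences, IPC AAR minus sham AAR, were -6.67 ± 0.20 for ASMM9PARTA016481, -5.47 ± 0.25 for ASMM9PARTA016798 (adjusted p = 0.0146) and -4.90 ± 0.14 for ASMM9PARTA015048 (adjusted p = 0.0123). The value of ASMM9PARTA016481 is again a description, since its low IPC AAR mean served to locate it. They were -4.70 ± 0.36 for ASMM9PARTA017942 and -4.54 ± 0.64 for ASMM9PARTA015629, whose sham arrays were further apart, at 8.39 in mouse 012 and 10.14 in mouse 013. All 5 lost their calls by the methods' t-test (adjusted p 0.0902 to 0.173) and by limma with no filter (adjusted p 0.0702 to 0.0962). ASMM9PARTA015629 also lost its call when either IPC AAR array was left out, and ASMM9PARTA017942 without IPC AAR 004. A fold over 16 was found for these 5 (16.7% of the 30 lower members detected on all 4 arrays, beside 6.11% of such probes) and for 0 of the 26 higher ones (beside 1.77%), and with so few members no more is read from it.

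Among members detected on all 4 arrays, which leaves out ASMM9PARTA017495, the largest increases over the sham AAR were smaller. ASMM9PARTA016678 read 7.11 and 6.55 in the IPC AAR and 4.98 and 4.40 in the sham AAR, a log2 difference of 2.13 ± 0.32 (adjusted p = 0.0399), with 5.46 and 5.80 in the IPC RM in between. ASMM9PARTA014833 read 7.91 and 8.08 against 6.51 and 6.08, a difference of 1.70 ± 0.22, with 6.87 and 6.73 in the IPC RM. In both, the IPC AAR was above each of the other groups.

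In the next 3, the IPC RM was level with the IPC AAR and the sham AAR stood apart below them. ASMM9PARTA017684 read 6.45 and 6.60 in the IPC AAR, 6.57 and 6.68 in the RM and 5.02 and 4.72 in the sham AAR, a difference of 1.66 ± 0.18 between the AAR groups. ASMM9PARTA018012 read 9.34 and 9.39, 9.23 and 9.48, and 8.15 and 7.60 (1.49 ± 0.24). ASMM9PARTA017143 read 11.94 and 11.84, 11.79 and 12.23, and 10.46 and 10.38 (1.47 ± 0.15). The IPC arrays of both regions shared a slide that held no sham array, so in these 3 members treatment and slide cannot be told apart. Each of the 5 lost its call when IPC AAR 004 or IPC AAR 008 was left out, and all but ASMM9PARTA017143 without sham AAR 013. ASMM9PARTA016678 and ASMM9PARTA017684 also lost theirs with normexp, and all 5 by the methods' t-test and with no filter.

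Dim members were again limited to bounds, which hold only for the limit described above. These members entered the test only through their brighter group, so their adjusted p is a description. Among those not well above background on either sham array, ASMM9PARTA017205 was at least 3.11-fold higher in the IPC AAR (adjusted p = 0.0335), and ASMM9PARTA017200 at least 2.32-fold, with 5.30 and 5.37 against 4.18 and 3.64. The bounds for ASMM9PARTA018170, ASMM9PARTA017590 and ASMM9PARTA015420 were 1.77-fold, 1.52-fold and 1.43-fold. Among those not well above background on either IPC AAR array, ASMM9PARTA016183 was at least 2.98-fold lower than in the sham AAR, ASMM9PARTA014860 at least 2.28-fold, ASMM9PARTA015380 at least 2.13-fold and ASMM9PARTA017544 at least 2.06-fold. ASMM9PARTA015787, at least 1.45-fold lower, read 4.81 in the IPC RM of mouse 004 and 7.90 in that of mouse 008, a wide gap between replicates. All 10 of these members lost their calls when IPC AAR 004 was left out, all but ASMM9PARTA015380 without IPC AAR 008, and all but ASMM9PARTA018170 and ASMM9PARTA015787 without sham AAR 013. With normexp, by the methods' t-test or with no filter, none of the 10 was called.

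Between the IPC RM and the sham AAR, no member was called by limma (0 of 2606 tested, beside 0% of 46061 probes). An unadjusted p under 0.05 was found for 412 of these members, beside 7554 of the 46061 probes, so the block was near the whole array. The methods' t-test called 0 (272 unadjusted), and a single fit of all 6 arrays called 10 members, 5 in each direction. The median log2 difference, IPC RM minus sham AAR, was -0.01 over the members and 0.03 over all probes. The single fit called 0.384% of the members tested, beside 0.463% of all probes. Without sham AAR 012 the count was 195 (7.48%, beside 6.74%), without sham AAR 013 it was 271 (10.4%, beside 14.2%), and it was 0 without IPC RM 004 and 0 without IPC RM 008.

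The smallest adjusted p, 0.159, was shared by 14 members, 7 higher and 7 lower in the IPC RM. The 3 of these with the smallest unadjusted p were ASMM9PARTA017209, ASMM9PARTA015540 and ASMM9PARTA018144, which were lower in the IPC RM. ASMM9PARTA017209 read 6.63 and 6.69 in the IPC RM, 9.04 and 9.15 in the sham AAR and 8.48 and 8.64 in the IPC AAR, a difference of -2.43 ± 0.15. ASMM9PARTA015540 read 5.92 and 5.72, 8.46 and 8.62, and 8.33 and 8.61 in the same order, a difference of -2.72 ± 0.17. In both, the AAR of IPC and of sham mice lay close together and the IPC RM stood apart below them, as the probe located as Xist did. The difference of ASMM9PARTA018144 was -2.18 ± 0.15. These 3 passed the threshold with all 6 arrays in a single fit, without sham AAR 012 and without sham AAR 013, but their adjusted p was 0.988 without IPC RM 004 and 1 without IPC RM 008.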

How the data were processed

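The authors hybridized Cy3-labelled cRNA of 6 biopsies to 1-color arrays and deposited the scanner output of Agilent Feature Extraction (version 11.0.1.1 per the file headers). The intensity columns read here from the deposited output hold processed signals, corrected for background within each array and not normalized between arrays. A table of the series has 6 value columns whose names match no sample and which were not used. In R 4.3.3 with limma 3.58.1, control and outlier spots (17 to 29 per array) were left out, log2 values were quantile normalized over 6 arrays, and lmFit and eBayes were run on the 4 arrays of each comparison. To be tested, a probe had to be well above background throughout at least 1 of the groups compared, and without an outlier spot there. Calls needed a Benjamini-Hochberg adjusted p below 0.05 over all probes tested and a fold over 2. Bounds set the brighter group's mean against, per dim array, the higher of the probe's value and the lowest value well above background. Some spots not well above background read above that lowest value, so a bound holds only for this limit. With 2 mice per group, an exact permutation test cannot go below p = 0.333.

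The members named were, per comparison, the 5 largest folds up and down among called members detected on all 4 arrays and not overlapping between groups, the 5 largest bounds up and down, the 3 smallest adjusted p (ties by unadjusted p) where nothing was called, the 5 brightest and the 3 longest runs. No called probe overlapped between groups, so the condition on overlap removed none. Members and lists were chosen with earlier results of these data known. By the labels, an AAR and an RM biopsy that share a number are of 1 mouse, and the differences between these mice in the AAR and in the RM correlated at -0.13 over 38800 probes. The code of the fits was run on simulated normal values with the fitted spread and added differences. Such data follow the model of the fit, so they cannot show how it does on these arrays. Slide could not be a block, since each slide held 1 treatment.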

Additional observations from a re-analysis of the deposited data

How the results depend on the processing

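Between IPC AAR and IPC RM, the 286 called members (168 higher, 118 lower) became 93 (50 and 43) with normexp on median spot signals, 176 (103 and 73) by the methods' t-test and 368 with 75th percentile scaling (67.7% higher). The lower members were 73 with only probes detected on all 4 arrays and 78 with all 6 arrays in a single fit. Leaving out each array gave 123 to 448 (56 to 282 higher, 60 to 166 lower). With the mouse as a replicate block, 256 members were called (150 and 106), of which 250 were among the 286, and no named member lost its call. Between IPC AAR and sham AAR, the 81 members (45 and 36) became 161 (114 higher) with 75th percentile scaling, 45 (25 and 20) with normexp, 177 (113 and 64) with all 6 arrays, 122 (71 higher) with an intensity trend, 0 by limma with no filter (839 at an unadjusted p under 0.05) and 0 by the t-test (408 unadjusted), and 3 to 392 (0 to 287 higher, 3 to 105 lower) without single arrays, where a group left with 1 array borrows its spread from the other group. Between IPC RM and sham AAR, the 0 calls became 10 (5 and 5) with all 6 arrays and 0 to 271 (0 to 148 higher, 0 to 123 lower) without single arrays. The share called of all probes tested moved as well. Between IPC AAR and IPC RM it went from 20.6% to 10.9% with normexp, 15.1% by the t-test and 26.1% with 75th percentile scaling. Between IPC AAR and sham AAR it went from 8.56% to 6.08%, 0.00498% and 12.3% under the same settings. The cause of these changes was not tested, except that fewer probes are tested under the stricter filter. The offset of normexp lowers the folds of dim probes, and its share in the change was not tested. No named member changed direction. Of the results for named members under alternatives, 27 between IPC AAR and IPC RM and 97 between IPC AAR and sham AAR lost their call, and 9 between IPC RM and sham AAR gained one. The 75th percentile scaling moved the median log2 difference of all probes from 0.20 to 0.33 and from 0.23 to 0.33 in the comparisons of the IPC AAR, and the members' median lay above it by 0.13 and 0.15 with quantile normalization and by 0.07 and 0.09 with this scaling.

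With the flag for a positive and significant signal, 77.6%, 85.5% and 72.9% of the members were detected on both arrays in the IPC AAR, IPC RM and sham AAR, in place of 58.5%, 69.5% and 50.9%. The median level of the block in the IPC AAR differed from that of all probes by -0.63 with 75th percentile scaling. Counting spots marked as outliers as not detected was added after seeing the data. The 2 arrays of each group and the dimness of many members limit what can be told apart. Folds of dim members are bounds that hold only for the limit chosen.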
